A study of Cucumis sativus with 4 samples.

Results

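Of 17180 listed cucumber genes, 38 were close to silent in wild-type fruits and clearly expressed in fruits of the overexpression line OX-29. The genes were chosen by their deposited levels, at 10 CPM or more in each OX-29 library and less than 1 CPM in each WT library, where CPM means reads per 1000000 library reads. The values that chose them are the values described here, so the difference between the lines is given as a description and supports nothing by itself.

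The RNA came from young fruits of Cucumis sativus, taken 4 days before the flower opened. OX-29 is inbred line R1407 transformed with a construct in which the cauliflower mosaic virus 35S promoter drives CsFUL1, and its fruits are short. WT is the untransformed R1407 with long fruits, grown under the same protocol. Each line gave 2 libraries, called biological replicates in the design text, and how many fruits or plants each library holds is not stated in the sources used here. A single transformed line was sampled, so the place of its insertion and the action of CsFUL1 cannot be told apart. The libraries held 16719990 and 16326412 reads in OX-29 and 19824797 and 16858940 reads in WT, counted over the listed genes. A single read was worth 0.0504 to 0.0613 CPM. With 0 reads a level of up to 0.151 to 0.184 CPM is allowed (3 counts), which covers counting error only.

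FRUITFULL-like genes encode MADS-box transcription factors, which bind DNA as dimers or larger complexes and act in flower and fruit development. The 35S promoter is active in most plant tissues, so a gene under its control is transcribed in cells that would normally keep it low. A cucumber fruit before anthesis is an ovary made of fruit wall, placenta and ovules, and a bulk library mixes their RNA. In such a library fewer cells of a type and less RNA per cell cannot be told apart. None of the table's identifiers matched the RefSeq gene table used here, so the 38 genes are given by identifier and no function is assigned to any of them. Whether CsFUL1 itself is among them was not analysed here, and the labelled tissue could not be checked against marker genes for the same reason.

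The 38 genes reached moderate levels in OX-29. Their mean OX-29 level ran from 10.8 to 284 CPM with a median of 34.2 CPM, while their mean WT level ran from 0 to 0.899 CPM with a median of 0.419 CPM. The median listed gene stood at 19.6 and 19.1 CPM in OX-29 replicates 1 and 2, and 23 and 26 of the 38 genes lay above it. By mean OX-29 level 14 of the genes lay at 10 to 20 CPM, 10 at 20 to 50 CPM, 9 at 50 to 100 CPM and 5 at 100 CPM or more. Together the 38 genes took 0.200% and 0.225% of the reads in OX-29 replicates 1 and 2, against 0.00154% and 0.00149% in WT replicates 1 and 2. In reads these shares were 33395 and 36687 in OX-29, against 305 and 252 in WT.

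**Figure D1:**
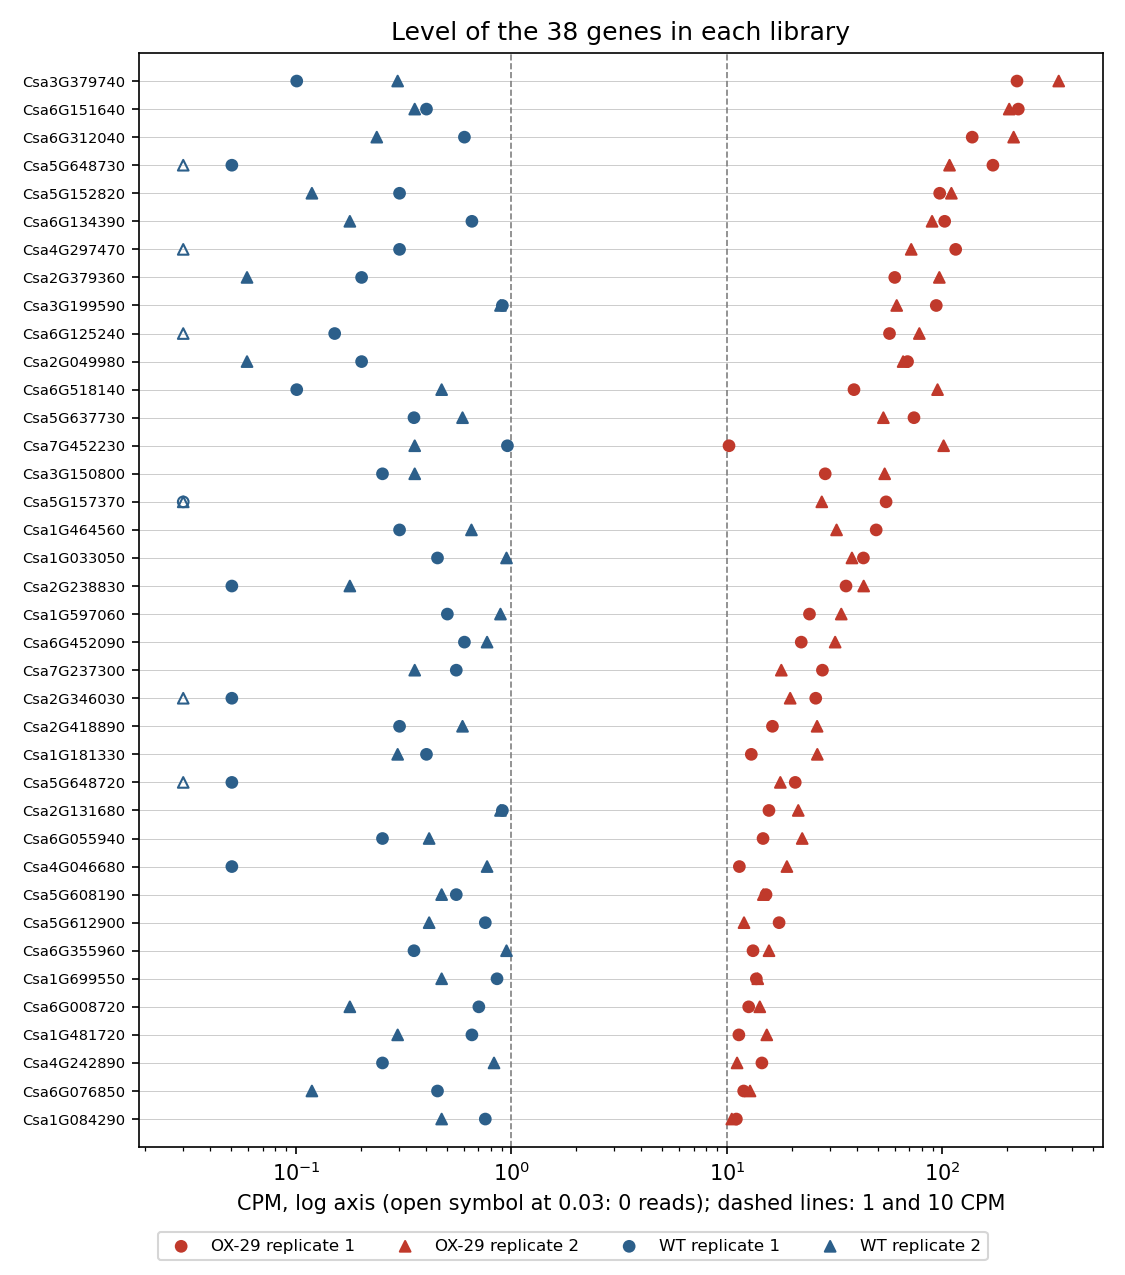
CPM of each of the 38 genes in the 4 libraries on a log axis, ordered by mean OX-29 level, with circles for replicate 1 and triangles for replicate 2. Open symbols at the left edge stand for 0 reads, and the dashed lines mark the 1 CPM and 10 CPM limits that define the group. OX-29 levels run from 10.2 to 347 CPM, and Csa7G452230 is the gene whose OX-29 symbols lie farthest apart.

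Reads were spread unevenly over the group. The 5 genes with the highest mean OX-29 CPM made up 43.3% of the group's summed OX-29 level, and the 10 highest made up 62.7%. CPM are not divided by gene length, so this order is one of reads and not of transcripts. Csa3G379740 had 222 and 347 CPM in OX-29 replicates 1 and 2, against 0.101 and 0.297 CPM in WT replicates 1 and 2. It came 847th and 443rd among all listed genes in the OX-29 libraries, while its WT values rest on 2 and 5 reads. Csa6G151640 had 225 and 204 CPM in OX-29, against 0.404 and 0.356 CPM in WT. Its replicates lay close together in both lines. Csa6G312040 had 138 and 214 CPM in OX-29, against 0.605 and 0.237 CPM in WT. Csa5G648730 had 172 and 108 CPM in OX-29, against 0.0504 and 0 CPM in WT, where a single read was counted in the 2 libraries together. Csa5G152820 had 97.1 and 110.1 CPM in OX-29, against 0.303 and 0.119 CPM in WT. These 5 genes all averaged above 100 CPM in OX-29, and which OX-29 library was the higher one differed among them.

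The next 5 genes averaged 67.5 to 96.0 CPM in OX-29. Csa6G134390 had 102 and 89.5 CPM in OX-29 replicates 1 and 2, against 0.656 and 0.178 CPM in WT replicates 1 and 2. Csa4G297470 had 115 and 71.7 CPM in OX-29, against 0.303 and 0 CPM in WT. Csa2G379360 had 60.1 and 96.8 CPM in OX-29, against 0.202 and 0.0593 CPM in WT. The OX-29 libraries of the last 2 genes differ in opposite directions, with replicate 1 the higher one for Csa4G297470 and replicate 2 for Csa2G379360. Csa3G199590 had 93.7 and 61.4 CPM in OX-29, against 0.908 and 0.890 CPM in WT, the highest mean WT level in the group together with Csa2G131680. Csa6G125240 had 56.8 and 78.2 CPM in OX-29, against 0.151 and 0 CPM in WT.

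**Figure D2:**
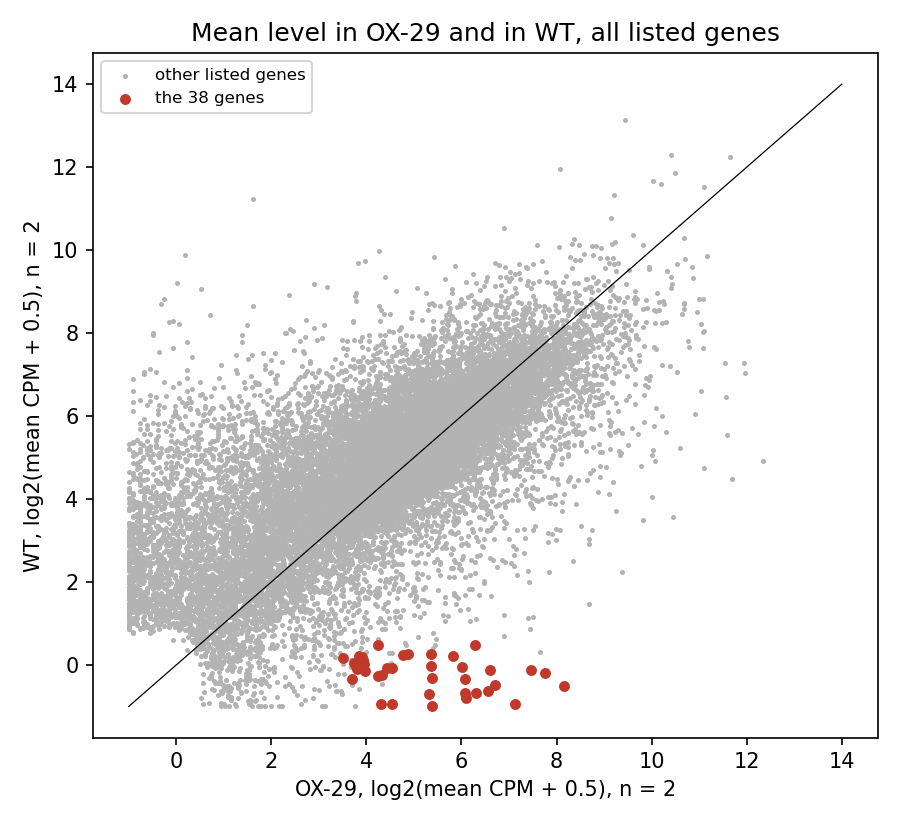
Mean OX-29 level (horizontal axis) and mean WT level (vertical axis) of all 17180 listed genes, both as log2(mean CPM + 0.5) over 2 libraries, with the 38 genes in red and the diagonal marking equal levels. The 38 genes lie along the lower edge, at mean OX-29 levels of 10.8 to 284 CPM.

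WT reads of the group were few but mostly not absent. In the 2 WT libraries together 1 gene had 0 reads, 4 had 1 to 3 reads, 7 had 4 to 10, 16 had 11 to 20 and 10 had more. The gene with 0 reads in both WT libraries was Csa5G157370, which had 54.8 and 27.6 CPM (916 and 450 reads) in OX-29 replicates 1 and 2. It was at least 505-fold higher in OX-29, with the WT level set to 3 counts over both WT libraries. A further 5 genes had 0 reads in WT replicate 2 only. The ratio of pooled reads, OX-29 over WT after division by library totals, had a median of 81.0 among the 37 genes with a WT read and was at least 100 in 16 of them. The largest ratio was 5140 for Csa5G648730, with an exact 95% counting interval of 922 to 203047 that reflects its single WT read. Csa3G379740 followed at 1486 (exact 95% interval 721 to 3696), and Csa2G346030 came next at 836 (150 to 33059). Csa2G346030 had 25.8 and 19.7 CPM in OX-29 replicates 1 and 2, against 0.0504 and 0 CPM in WT. The intervals of these 3 ratios overlap, so their order is not resolved. The smallest ratio was 17.2 for Csa1G084290 (exact 95% interval 11.3 to 27.5). All these intervals cover the counting error of pooled reads only and leave out the spread between libraries. In all 37 genes the lower bound of the ratio was at least 10. The rule already puts every ratio above 10, so nothing is read from this bound. WT replicate 1 was the higher WT library in 23 of the 38 genes and WT replicate 2 in 14, and 1 gene had 0 in both.

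In the limma fit across all genes the 38 members had a median log2 fold change of 5.18 (OX-29 over WT, range 3.35 to 8.65), on log2(CPM + 0.5), which understates folds of genes near 0. The median over all 16982 genes tested was -0.38. After median-of-ratios scaling the medians were 5.41 for the members and -0.02 for all genes. All 38 were called higher in OX-29 at a Benjamini-Hochberg adjusted p under 0.05, where 18.6% of all genes tested were called higher, and in all 38 the OX-29 libraries lay above the WT libraries, which held for 29.5% of all genes tested. The rule requires that order of libraries, so nothing is read from either count. The median standard error was 0.35 for the members and 0.26 for all genes tested.

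The limits that define the group fell within a continuous range of levels. Nearest below the WT limit was Csa7G452230, whose highest WT value was 0.958 CPM. Csa1G033050 had 43.0 and 38.0 CPM in OX-29 replicates 1 and 2, against 0.454 and 0.949 CPM in WT replicates 1 and 2. Csa6G355960 had 13.2 and 15.7 CPM in OX-29, against 0.353 and 0.949 CPM in WT. Just past the WT limit were Csa1G348440 with 23.0 and 21.5 CPM in OX-29, Csa3G731130 with 59.8 and 26.2 CPM and Csa6G127370 with 36.7 and 19.2 CPM. Each of these had 20 reads or 1.01 CPM in WT replicate 1, a single read more than Csa7G452230 had there. At the OX-29 limit the lowest member values were 10.2 CPM for Csa7G452230, 10.5 CPM for Csa1G084290 and 11.1 CPM for Csa4G242890. Just short of it were Csa6G499150 at 9.86 CPM, Csa2G416770 at 9.81 CPM and Csa4G193250 at 9.80 CPM in their lower OX-29 library. In all, 66 genes met the rule in 3 of the 4 libraries. Of these 10 fell short in OX-29 replicate 1, 18 in OX-29 replicate 2, 24 in WT replicate 1 and 14 in WT replicate 2. The group therefore grows to 62 genes when WT replicate 1 is not asked for, and to 48 to 56 genes without one of the other libraries.

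Most genes that were near silent in WT were also low in OX-29. The table lists 300 genes below 1 CPM in both WT libraries, and their median OX-29 mean was 2.40 CPM. Of these 8 had an OX-29 mean under 1 CPM, 205 one of 1 to 5 CPM and 87 one of 5 CPM or more, and the 38 members are 12.7% of the 300. No listed gene has fewer than 2 libraries at 0.897 CPM or above, so a gene below that level in both WT libraries is in the table only if both OX-29 libraries reached it. Seen from OX-29, the members are 0.364% of the 10452 genes at 10 CPM or more in both libraries of OX-29, which had a median WT mean of 50.2 CPM. The opposite group, below 1 CPM in both OX-29 libraries and at 10 CPM or more in both WT libraries, held 298 genes, or 22.2% of the 1343 genes near silent in OX-29. Its median level in the expressing line was 28.6 CPM, beside 34.2 CPM for the 38 genes.

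The OX-29 libraries differed more from each other in the 38 genes than in other genes of that level. The rule asks both OX-29 libraries to reach 10 CPM but does not use the difference between them. The median fold between the OX-29 libraries, the higher over the lower, was 1.40 in the 38 genes and 1.12 in the 10414 other genes at 10 CPM or more. A fold of at least 1.5 occurred in 16 of the 38 genes (42.1%) and in 743 of the others (7.13%). With 1 difference per gene from a single pair of libraries, this comparison has no test over samples. The members had the higher median in each class of level. At a mean of 100 CPM or more the median fold was 1.56 in the 5 members and 1.10 in 2470 others. At 50 to 100 CPM it was 1.53 in 9 members and 1.10 in 2410 others, at 20 to 50 CPM 1.48 in 10 members and 1.13 in 3583 others, and at 10 to 20 CPM 1.24 in 14 members and 1.13 in 1951 others. For the 294 other genes at 10 CPM or more that were called higher by at least 8-fold, the median fold was 1.24, and 77 of them (26.2%) reached 1.5. Of these genes 174 lay at 100 CPM or more, more than in any other class, with a median fold of 1.21. Their medians were 1.31 for 58 genes at 50 to 100 CPM, 1.38 for 50 genes at 20 to 50 CPM and 1.07 for 12 genes at 10 to 20 CPM. In the lowest class they thus lay below both the members and the other genes, and in the 3 higher classes between them. In WT the opposite group of 298 genes also had the wider gap, with a median fold of 1.44 between the WT libraries. The other genes at 10 CPM or more in both WT libraries had 1.22, without a split by level. A wider gap between replicates was thus not particular to the 38 genes.

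**Figure D3:**
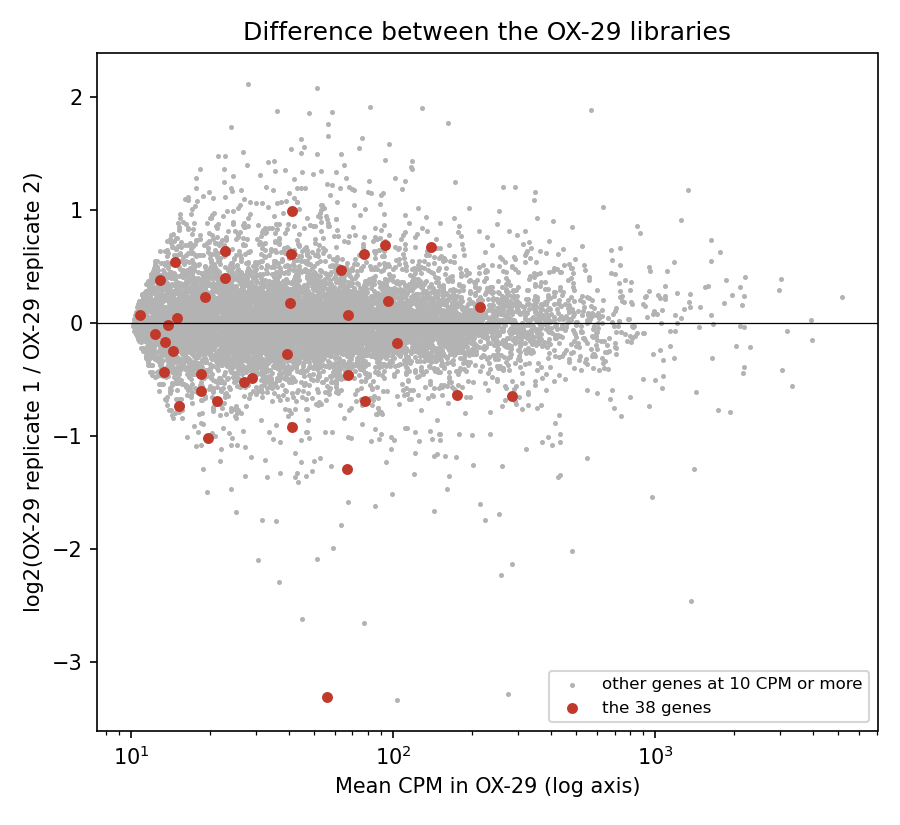
log2 ratio of OX-29 replicate 1 over OX-29 replicate 2 against the mean OX-29 CPM (log axis), for genes at 10 CPM or more in both. The 38 genes, in red, lie on both sides of 0, with 17 higher in replicate 1 and 21 higher in replicate 2, and Csa7G452230 is the lowest red point.

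The differences between the OX-29 libraries had no common direction. Replicate 1 was higher in 17 of the 38 genes and replicate 2 in 21, with a median log2 ratio of -0.13, beside 0.00183 in the other genes. Csa7G452230 differed most, with 10.2 and 101 CPM (171 and 1654 reads) in OX-29 replicates 1 and 2, against 0.958 and 0.356 CPM in WT replicates 1 and 2. Its 9.91-fold difference was the second largest ratio among all 10452 genes at 10 CPM or more in OX-29. In OX-29 replicate 1 alone, its level was 10.7 times its highest WT value. Csa6G518140 had 38.9 and 94.9 CPM in OX-29, against 0.101 and 0.475 CPM in WT, a 2.44-fold difference between the OX-29 libraries. Csa1G181330 had 13.0 and 26.3 CPM in OX-29, against 0.404 and 0.297 CPM in WT, a 2.02-fold difference between the OX-29 libraries. These 3 genes were all higher in OX-29 replicate 2, and no other member reached a 2-fold difference. The members whose OX-29 libraries lay closest were Csa1G699550 with 13.7 and 13.9 CPM, Csa5G608190 with 15.2 and 14.8 CPM and Csa2G049980 with 68.9 and 65.7 CPM. Their WT values were 0.858 and 0.475 CPM, 0.555 and 0.475 CPM, and 0.202 and 0.0593 CPM. For these 3 genes the OX-29 libraries differed by a factor of at most 1.05.

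The 15 members not given by value ran from 11.4 to 73.8 CPM in OX-29 replicate 1 and from 12.0 to 54.0 CPM in OX-29 replicate 2, against 0.0504 to 0.908 CPM in WT replicate 1 and 0.119 to 0.890 CPM in WT replicate 2. Their pooled ratios ran from 20.6 to 361, and their OX-29 libraries differed by factors of 1.07 to 1.89.

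The genes lay on all 7 chromosomes. The chromosome was read from the digit in each identifier and the order along it from the number that follows, as cucumber gene names are built. Chromosome 6 held 10 of the 38 genes, chromosomes 1 and 5 held 7 each, chromosome 2 held 6, chromosomes 3 and 4 held 3 each and chromosome 7 held 2. Per 1000 listed genes this gives 3.47 on chromosome 6, 3.09 on chromosome 5, 2.87 on chromosome 2 and 2.80 on chromosome 1. Chromosomes 4, 7 and 3 had 1.45, 1.19 and 0.832 per 1000, and the whole table had 2.21. Chromosome 3 is the one with the most listed genes, 3605, and it holds Csa3G379740, the member with the most OX-29 reads. None of the 84 listed genes without a chromosome digit was a member. The counts are small and were not tested. The opposite group of 298 genes had 17.3 per 1000 over the whole table, with 20.8 on chromosome 6, 19.6 on chromosome 2, 18.8 on chromosome 1 and 18.4 on chromosome 4. It had 15.3 on chromosome 3, 14.8 on chromosome 7 and 13.7 on chromosome 5. On chromosomes 4 and 5 it thus lay on the other side of its overall rate than the 38 genes did.

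**Figure D4:**
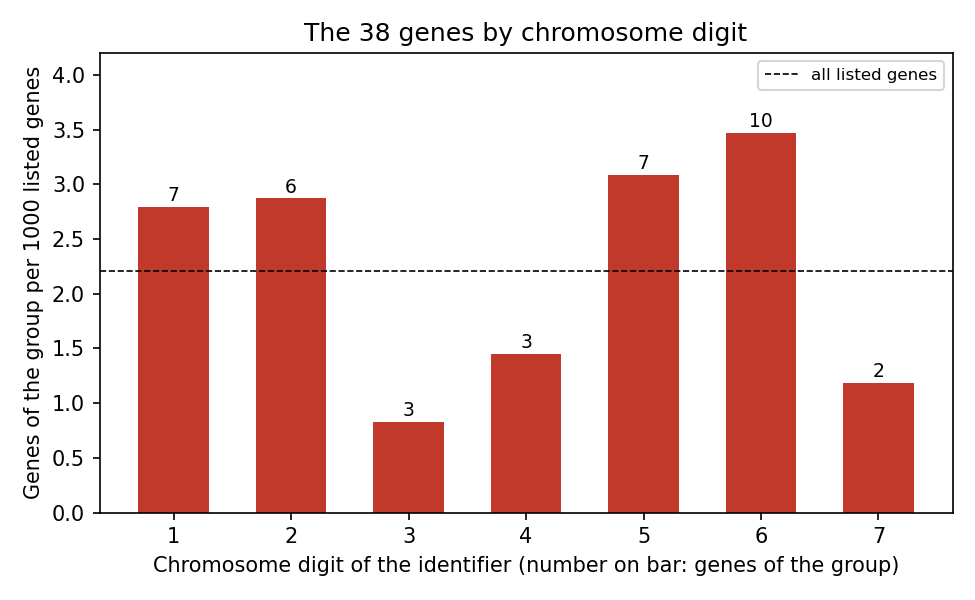
Members per 1000 listed genes for each chromosome digit, with the number of members on each bar and the rate over all listed genes as a dashed line. Chromosome 6 has the highest rate, 3.47 per 1000 with 10 genes, and chromosome 3 the lowest, 0.832 per 1000 with 3 genes.

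With 1 exception the members lay far apart. Successive members of a chromosome were a median of 258 listed genes apart, and apart from a single adjacent pair the closest were 59 apart. The adjacent pair was Csa5G648720 and Csa5G648730, whose identifiers are also 1 step apart in the naming scheme. Csa5G648720 had 20.8 and 17.7 CPM in OX-29 replicates 1 and 2, against 0.0504 and 0 CPM in WT, beside 172 and 108 CPM in OX-29 and the same WT values for Csa5G648730. Both genes thus had a single WT read, in WT replicate 1. How reads of overlapping genes or of near-identical copies were counted is not given, so these 2 genes may share reads. On the deposited scale neither gene beside the pair was called different between the lines. The median log2 fold change of all genes tested on that scale was -0.38. Values of these neighbours after median-of-ratios scaling are not given here. In both neighbours each OX-29 library lay above each WT library, which held for 29.5% of all genes tested. Csa5G648700 had 72.2 and 69.0 CPM in OX-29, against 61.5 and 49.7 CPM in WT (log2 fold change 0.35 ± 0.18 SE, limma adjusted p = 0.147), and Csa5G648740 had 119 and 113 CPM in OX-29, against 88.9 and 96.7 CPM in WT (0.33 ± 0.16 SE, limma adjusted p = 0.127). In the opposite group 24 of 290 successive pairs were adjacent, beside 1 of 31 here. Its genes are denser along the chromosomes, so these shares are not on equal terms.

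On the deposited scale the genes directly beside members centred on no change, which was above the median of all genes. Of the 72 tested genes next to a member, members left out, 18 (25.0%) were called higher and 19 (26.4%) lower in OX-29, where 18.6% and 38.4% of all genes tested were called higher and lower (limma, adjusted p under 0.05). Their median log2 fold change was 0.0034, against -0.38 over all genes tested. With 2 and 5 listed genes on each side the share called higher was 19.9% and 22.5%, and the median log2 fold change was -0.12 and -0.18. After median-of-ratios scaling 30 of the 72 direct neighbours were called higher, where 27.4% of all genes were, and their median was 0.36 against -0.02. Without OX-29 replicate 1 the share of direct neighbours called higher was 15.5%, where 9.45% of all genes were. The difference between neighbours and all genes was not tested. Leaving members out, both neighbours were called higher for 1 member, one of them for 16 members and neither for 21. Next to the 335 other genes called higher by at least 8-fold, 34.1% of the tested neighbours were called higher, beside 27.0% next to the 38 genes when members are counted as neighbours too. Neither share leaves out the set's own genes, which are called higher. The 335 genes are denser along the chromosomes, so these shares are not on equal terms.

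**Figure D5:**
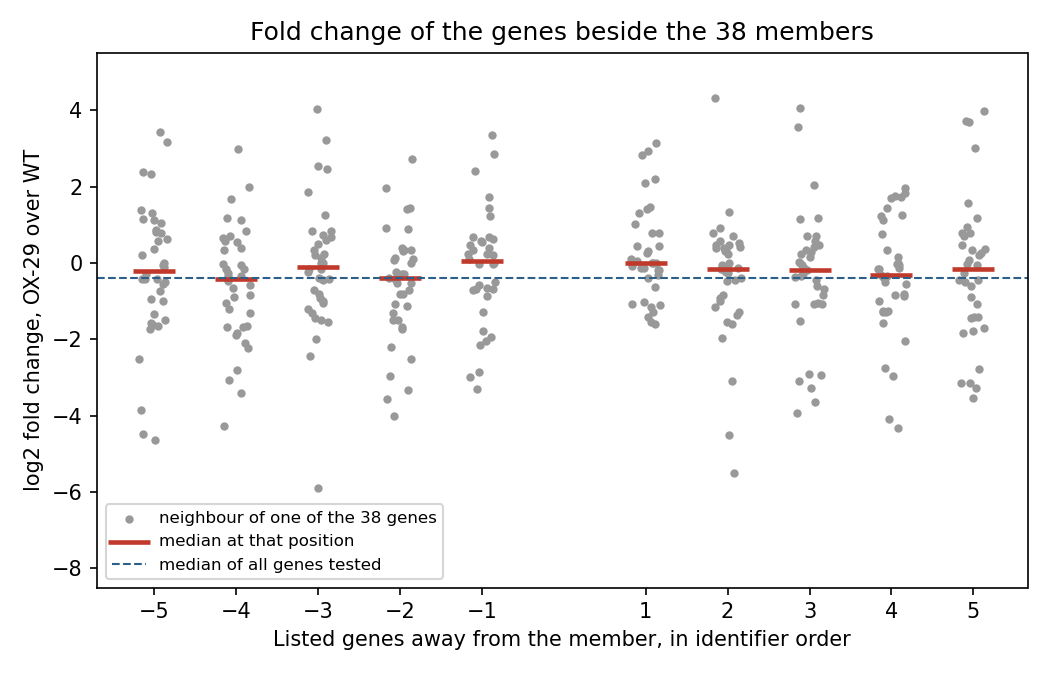
log2 fold change, OX-29 over WT, of the listed genes up to 5 positions before and after each member in identifier order, members left out, with a red bar for the median at each position and a dashed line for the median of all genes tested (-0.38). The medians at positions -1 and 1 are 0.06 and -0.01, and the single neighbours spread widely at every position.

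Of the 74 listed genes directly beside members, 5 (6.76%) were themselves below 1 CPM in both WT libraries, beside 1.75% of all listed genes and 3 of the 296 genes (1.01%) at the 2nd to 5th position. The direct neighbours and the 3 genes farther off are named here because they are few, after their values were seen. Csa4G297480, one identifier step after Csa4G297470, had 6.28 and 1.65 CPM (105 and 27 reads) in OX-29 replicates 1 and 2, against 0 reads in both WT libraries. Its OX-29 libraries differed in the same direction as those of Csa4G297470. Csa6G076840, one step before the member Csa6G076850, had 5.38 and 4.04 CPM in OX-29, against 0.404 and 0.0593 CPM in WT. Csa1G466560 had 2.81 and 3.00 CPM in OX-29, against 0.958 and 0.534 CPM in WT. The other two, Csa2G130680 and Csa6G518160, stayed between 0.919 and 1.59 CPM in OX-29, against 0.356 to 0.706 CPM in WT. Apart from Csa1G466560, these direct neighbours lay below 0.897 CPM in both WT libraries. Such genes are in the table only because both OX-29 libraries reached that level. Nothing is therefore read from the order of the lines in them. In the naming scheme Csa1G466560 and Csa2G130680 lie 2000 and 1000 away from their members, beyond a single identifier step of 10, and no coordinates were used that would give the distance. Of the 3 genes farther off, Csa2G055030 had 9.09 and 6.74 CPM in OX-29 replicates 1 and 2, against 0 reads in WT. Csa2G379920 had 8.61 and 2.94 CPM in OX-29, against 0.353 and 0.0593 CPM in WT. Csa5G613430 had 1.38 and 1.65 CPM in OX-29, against 0.353 and 0 CPM in WT. These too lay below 0.897 CPM in both WT libraries.

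Members sat beside listed genes about as often as other genes did. Of the 76 identifiers 1 step before or after a member, 50 (65.8%) were in the table, beside 68.4% for all listed genes, 69.5% for the other genes at 10 CPM or more in OX-29 and 60.9% for the opposite group. An identifier that is not in the table can be a gene left out for low levels or a number that was never assigned, and these were not told apart.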

How the data were processed

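Messenger RNA was sequenced from OX-29 and WT fruits, 2 libraries each. The authors deposited CPM, 1 column per library. Per the submitters' processing notes, TopHat and HTSeq were used; the sources used here give no versions, settings, strand use, build or annotation. Each column sums to 1000000, and dividing a column by its smallest value above 0 gave whole numbers throughout (100% within a tolerance of 0.001), so whole reads were recovered. Columns left out numbered 0. Of the identifiers, 0 matched RefSeq (23999 genes, Cucumber_9930_V3), so gene lists, lengths and sequences were not used.

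The test was limma 3.58.1 (R 4.3.3; eBayes with trend) on log2(CPM + 0.5), for genes averaging 1 CPM or more, Benjamini-Hochberg over all of them. It was tested on simulated counts with equal spread in both lines and with smaller changes than those of the 38 genes. Genes near 0 in WT were not among those changed there, so the check does not cover them. The design assumes equal spread in both lines (common dispersion 0.0384 in OX-29, 0.102 in WT). P-values thus reflect only how these libraries vary. Alternatives were other pseudocounts, filters, median-of-ratios scaling (factors with product 1), a replicate block, eBayes without trend, single libraries left out, and edgeR 4.0.16 and DESeq2 1.42.0 on recovered reads, which called 9390 and 9659 genes. Members, lists and comparisons were chosen with earlier results of these data known. Genes given by value are the 10 with the most OX-29 reads, those with 0 WT reads, those within 5 listed genes of another member, the 3 extremes in replicate difference each way, the 3 largest ratios, and the 3 genes on each side of both limits.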

Additional observations from a re-analysis of the deposited data

How the results depend on the processing

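The number of members follows the limits: 17 and 69 with a WT limit of 0.5 and 2 CPM, 69 and 20 with an OX-29 limit of 5 and 20 CPM, and 50 after median-of-ratios scaling, which kept all 38 and added 12. With a library left out it was 48 to 62, since a condition is then dropped. The members' median log2 fold change was 5.96, 4.45 and 2.70 with pseudocounts of 0.1, 1 and 5 (a larger pseudocount shrinks folds of genes near 0 by construction) and 5.10 to 5.27 with a library left out. All 38 were called higher in every setting that kept all libraries. The rule that chose the genes already sets their OX-29 levels far above their WT levels, so nothing is read from these calls. With a library left out, the single library left in a line is assumed to vary like those of the other line. Calls of single members are therefore not counted for those fits, and the call of Csa7G452230 depended on having both WT libraries. The direct neighbours' median was 0.36 and their share called higher 41.7% after median-of-ratios scaling, and -0.045 to 0.27 and 15.5% to 25.4% with a library left out. Over all genes, the calls numbered 5801 to 9242 with a library left out, of which 1603 to 3254 were higher and 4198 to 6224 lower, with the low ends without OX-29 replicate 1. Higher calls numbered 4640 after median-of-ratios scaling, 4423 with edgeR and 4612 with DESeq2, against 3155, so the balance of directions depends on the scaling. No label says that the replicate numbers pair the libraries. The replicate differences of the lines were nearly uncorrelated across genes (correlation -0.02), which cannot exclude a pairing. A replicate block gave 9420 calls. Depth limits statements on WT levels to above 0.151 to 0.178 CPM.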
